A study of Mus musculus with 8 samples.

Results

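The formative and primed epiblast genes described here are 9 genes, Fgf5, Otx2, Pou3f1, Tcf15, Sall2, Pim2, Car4, Sfrp2 and Fgf15, out of 55401 in the count table. They were taken by symbol as known markers of these states, and each matched 1 row. All 9 had enough counts in these libraries to be among the 17125 genes tested. Poly(A)-selected RNA was sequenced from R1, an established line of mouse embryonic stem cells (ESCs). The 4 groups, of 2 libraries each, were wild-type control ESCs, Zfp462 knockout ESCs, and embryoid bodies (EBs) of control and of knockout cells. ESCs of both genotypes were grown on gelatin in serum medium with leukaemia inhibitory factor, a cytokine that maintains ESCs. EBs, floating aggregates in which ESCs begin to differentiate, were taken after 3 days in Petri dishes. How many knockout clones were used is not stated in the labels, nor whether the 2 libraries of each group derive from independent cultures. The p-values therefore measure only the spread between these libraries, which may be technical.

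Pluripotent cells pass from the naive state of the blastocyst through a formative state to the primed state of the epiblast about to gastrulate. During the transition naive transcription factors are shut down while OTX2 and POU3F1 (also called OCT6) take over many enhancers, and FGF signalling through ERK promotes the exit from the naive state. Fgf5 RNA is the classical marker of the formative epiblast, and day 3 EBs are a common culture model of it.

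The libraries held 12119763 to 16228426 counts. Zfp462 itself, in CPM (counts scaled to a common library size), was at 183 and 197 in control against 104 and 107 in knockout ESCs. In EBs it was at 153 and 130 against 102 and 102 CPM, so at each stage both knockout libraries lay below both control libraries. The log2 change was -0.85 ± 0.10 (SE) in ESCs (adjusted p = 0.000366) and -0.47 ± 0.10 in EBs (adjusted p = 0.0207), and transcripts of the gene remained in knockout cells; which part of it was altered is not stated in the labels. A pair of libraries stood apart from their replicates. Knockout ESC replicate 2 had a trend with GC content: its 10% of genes richest in GC lay at a median of -0.59 on the log2 scale against the mean of all libraries, where the other 7 libraries lay between -0.07 and 0.19. Knockout EB replicate 1 held adult liver transcripts, with 2102 CPM summed over 15 liver genes against 5.83 to 30.5 CPM in the other 7. All 7 general pluripotency genes, Pou5f1, Sox2 and Nanog among them, had 10 or more counts in every library. Of these 7, 4 were lower in knockout ESCs (Pou5f1, Sox2, Lin28a and Dppa4), and in knockout EBs Nanog was higher and Lin28a lower. Of all genes tested, 6.20% were called lower in knockout ESCs, and 4.75% higher and 2.04% lower in knockout EBs.

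The 9 genes lie on 8 chromosomes in mm10, where the spans in the count table are the same as those of GENCODE M21. On plus strands, Fgf5 (ENSMUSG00000029337.2) spans 98254184 to 98277030 of chromosome 5, Fgf15 (ENSMUSG00000031073.6) spans 144896531 to 144900953 of chromosome 7 and Sfrp2 (ENSMUSG00000027996.13) spans 83766321 to 83774316 of chromosome 3. Pou3f1 (ENSMUSG00000090125.3), a gene of 1 exon, spans 124656807 to 124660655 of chromosome 4, and Tcf15 (ENSMUSG00000068079.5) spans 152143561 to 152149097 of chromosome 2. Pim2 (ENSMUSG00000031155.17) spans 7878262 to 7883432 of chromosome X and Car4 (ENSMUSG00000000805.18) spans 84957786 to 84966044 of chromosome 11. Otx2 (ENSMUSG00000021848.16, 48657677 to 48673819) and Sall2 (ENSMUSG00000049532.11, 52311172 to 52328762) share the minus strand of chromosome 14. The exons of Fgf15 share 761 of 3058 bases with the antisense gene Gm26793, those of Sfrp2 347 of 2153 with Gm26771, those of Pou3f1 330 of 3849 with Gm2164 and those of Otx2 154 of 4221 with Otx2os1. Whether counting used strand is not stated in the labels, so reads from such a pair cannot be told apart. Otx2 also shares 168 bases with Gm49154 on its own strand, and Fgf15 shares 26 with Gm39119 on the opposite strand. These 6 partners had at most 17 counts in any library. How reads lying on 2 genes were counted is not stated either, so these counts do not show how many reads fell on shared bases.

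Promoters are shown for Pim2, which changed most in knockout EBs, for Fgf5 and Car4, whose knockout effect differed between the stages, and for Sfrp2, the other gene with a match to the POU octamer. Each is the 250 bases before the gene's RefSeq start, cut back for Pim2 to the 206 bases that lie before its first GENCODE exon, in GRCm38.p6 (RefSeq, plus strand, 5′ to 3′). Capitals mark every match to 8 short motifs on either strand.
Pim2, chrX:7878056-7878261: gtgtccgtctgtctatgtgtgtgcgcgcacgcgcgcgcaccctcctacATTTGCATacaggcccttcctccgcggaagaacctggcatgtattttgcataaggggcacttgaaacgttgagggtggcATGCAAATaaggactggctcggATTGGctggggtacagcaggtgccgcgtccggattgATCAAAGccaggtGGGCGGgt
Sfrp2, chr3:83766071-83766320: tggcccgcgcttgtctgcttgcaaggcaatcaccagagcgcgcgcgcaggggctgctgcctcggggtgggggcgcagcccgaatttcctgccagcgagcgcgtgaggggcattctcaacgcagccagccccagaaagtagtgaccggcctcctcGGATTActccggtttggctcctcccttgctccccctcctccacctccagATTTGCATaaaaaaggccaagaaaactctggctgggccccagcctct
Fgf5, chr5:98253934-98254183: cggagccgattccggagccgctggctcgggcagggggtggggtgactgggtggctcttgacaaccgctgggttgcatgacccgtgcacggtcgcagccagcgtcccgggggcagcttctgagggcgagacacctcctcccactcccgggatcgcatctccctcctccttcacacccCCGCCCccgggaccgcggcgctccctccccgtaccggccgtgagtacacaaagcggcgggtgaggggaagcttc
Car4, chr11:84957504-84957753: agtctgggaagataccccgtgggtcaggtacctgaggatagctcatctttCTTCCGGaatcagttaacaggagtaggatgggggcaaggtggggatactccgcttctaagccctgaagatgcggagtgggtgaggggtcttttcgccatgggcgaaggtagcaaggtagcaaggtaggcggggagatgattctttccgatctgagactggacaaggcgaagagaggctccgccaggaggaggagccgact

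The Pim2 window held the POU octamer ATGCAAAT on both strands, starting 202 and 123 bases before the start, and Sfrp2 held it 47 bases before the start. Of 32841 windows of 250 bases in the RefSeq promoter table, 1.6% held this octamer. Sfrp2 was shown because of its octamer, so how often the shown windows hold it cannot be set against that share. Pim2 also held the TCF/LEF core CTTTGAT (3.21% of windows), a CCAAT box (33.9%) and a GC box GGGCGG (32.8%), and Sfrp2 held the OTX core TAATCC (6.25%). Fgf5 held only a GC box and Car4 only the ETS core CCGGAAG (6.91%), the TATA box TATAAA (12.4%) and the STAT core TTCNNNGAA (7.02%) being in none of the 4. No matches overlapped each other. A match is a description of the sequence, and no binding was measured here. Sall2, whose knockout effect also differed between the stages, and Otx2 have several RefSeq starts and are not shown. A window of each held the TATA box. Pou3f1, Tcf15 and Fgf15 were not matched in the table.

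As control cells formed EBs, 8 of the 9 genes rose and Tcf15 did not pass the test. The steepest was Fgf5, a secreted growth factor, followed by the kinase gene Pim2 and the transcription factor genes Pou3f1 and Sall2. Across all genes tested, 8.60% were called higher and 9.63% lower in this comparison at an adjusted p below 0.05 (edgeR's quasi-likelihood test, Benjamini-Hochberg adjustment, used for each adjusted p unless another tool is named). In these bulk samples, fewer cells that express a gene and less RNA per cell cannot be told apart.

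Among the secreted factors, Fgf5 stood at 1.55 and 1.84 CPM in control ESCs and at 58.0 and 64.3 CPM in control EBs. That was a log2 rise of 5.15 ± 0.17 (estimate ± SE throughout, adjusted p = 1.16e-07). The control ESC values rest on 19 and 30 counts, the lowest of any group for any of these genes. Fgf15, an FGF family ligand of the early brain and the adult gut, stood at 19.3 and 19.7 CPM in control ESCs and at 50.5 and 44.9 CPM in control EBs (1.29 ± 0.15, adjusted p = 0.000345). Sfrp2, which encodes a secreted WNT antagonist, went from 6.11 and 5.59 to 18.0 and 16.7 CPM (1.57 ± 0.19, adjusted p = 0.000445). For all 3 the EB libraries lay above both ESC libraries, as they did for 8 of the 9 genes; over all genes both EB libraries lay above in 31.8% and below in 33.1%.

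Among the transcription factors, Otx2, a homeobox factor that drives the exit from the naive state and later patterns the head, was already well expressed in ESCs. It stood at 103 and 106 CPM in control ESCs and at 308 and 273 CPM in control EBs (1.48 ± 0.10, adjusted p = 9.87e-06). Pou3f1, a POU-domain factor, rose from 9.45 and 11.5 to 106 and 111 CPM (3.37 ± 0.20, adjusted p = 4.7e-06). Sall2, a zinc finger factor of the Spalt family, rose from 7.65 and 8.35 to 72.1 and 79.9 CPM (3.24 ± 0.14, adjusted p = 7.31e-07). Tcf15, a basic helix-loop-helix factor tied to the onset of priming and later to the paraxial mesoderm, did not follow them. It stood at 35.0 and 32.7 CPM in control ESCs and at 43.4 and 29.3 CPM in control EBs, and the libraries overlapped (0.11 ± 0.37, adjusted p = 0.875).

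Of the remaining genes, Pim2, which encodes a serine/threonine kinase that promotes cell survival, rose from 21.4 and 18.3 CPM to 208 and 238 CPM (3.49 ± 0.14, adjusted p = 4.44e-07). Car4, which encodes a membrane-anchored carbonic anhydrase, rose from 17.6 and 21.0 CPM to 108 and 120 CPM (2.55 ± 0.12, adjusted p = 1.11e-06). All 8 rises passed the test without any 1 of the 8 libraries.

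**Figure D1:**
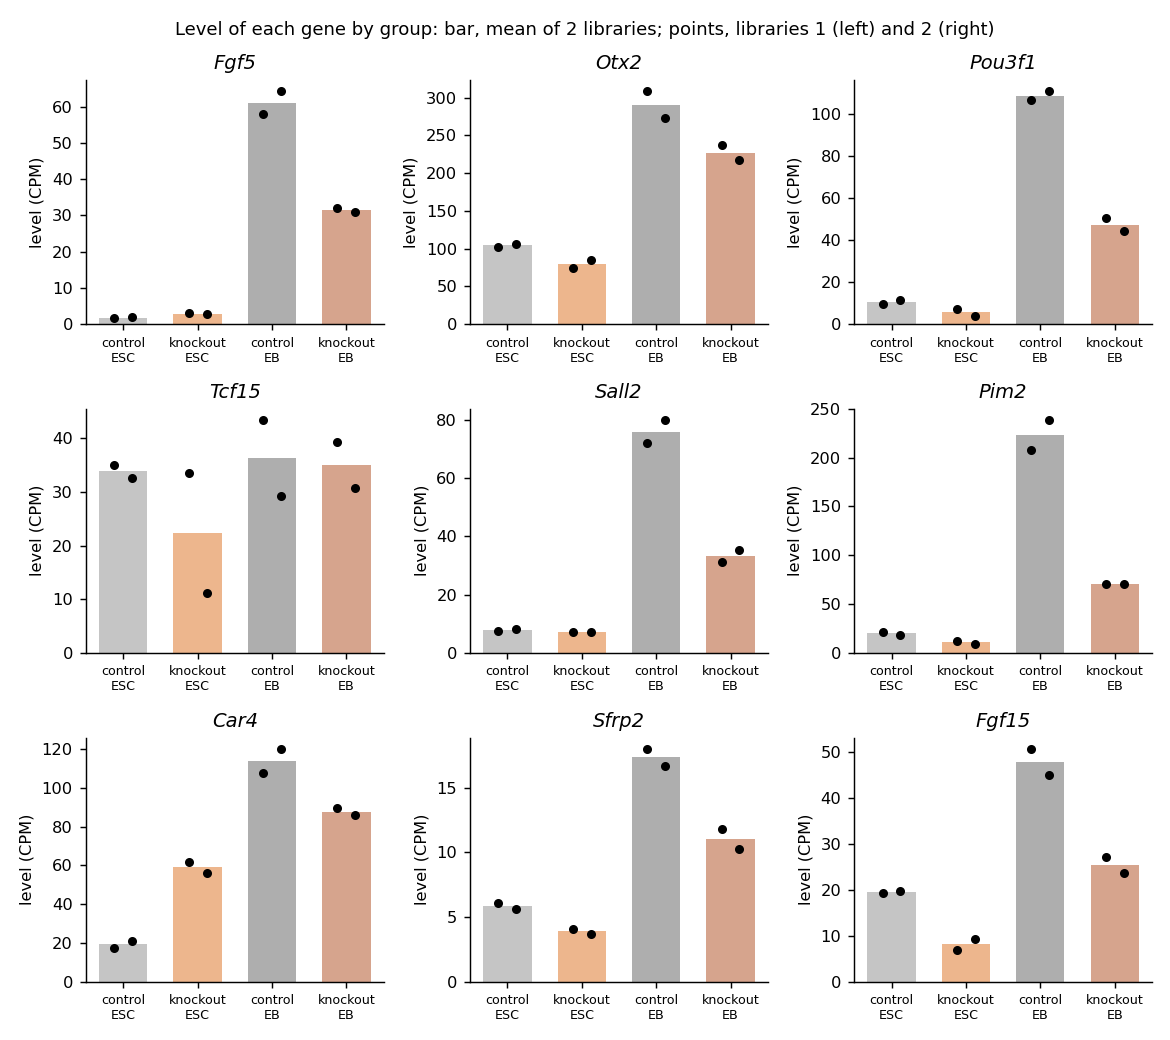
Level of each of the 9 genes in CPM (y axis, linear from 0, scaled separately for each gene) in the 4 groups (x axis). Bars are means of 2 libraries and points are the libraries. In 8 genes the control EB bar is the highest with no overlap, for example Pim2 at 208 and 238 CPM against 70.6 and 70.0 CPM in knockout EBs, while the Tcf15 points overlap between groups.

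Per length of exon (RPKM, CPM per kilobase of exon), the order of the genes changed between the stages. In control ESCs Tcf15 had the highest level at 34.5 ± 1.68 RPKM (mean ± SD, n = 2), followed by Otx2 at 24.7 ± 0.541 RPKM. Car4 (9.82 ± 1.23 RPKM), Pim2 (7.11 ± 0.786 RPKM) and Fgf15 (6.37 ± 0.0832 RPKM) came next, and Fgf5 was the lowest at 0.678 ± 0.0836 RPKM. Pou3f1 and Sfrp2, both at 2.72 RPKM, did not differ beyond their spread. In control EBs Pim2 led at 79.7 ± 7.77 RPKM, ahead of Otx2 at 68.9 ± 5.95 RPKM and Car4 at 57.9 ± 4.40 RPKM. Fgf15 at 15.6 ± 1.31 RPKM and Sall2 at 14.0 ± 1.02 RPKM overlapped there, and Sfrp2 was the lowest at 8.05 ± 0.415 RPKM. In knockout ESCs Car4 had the highest mean level at 30.0 ± 2.11 RPKM, overlapping Tcf15 at 22.8 ± 16.2 RPKM, with Otx2 at 19.0 ± 1.76 RPKM and Fgf5 lowest at 1.15 ± 0.104 RPKM. In knockout EBs Otx2 led at 53.8 ± 3.17 RPKM, ahead of Car4 at 44.6 ± 1.36 RPKM and Tcf15 at 35.8 ± 6.18 RPKM. Pim2, first in control EBs, was below these 3 at 25.2 ± 0.160 RPKM, and Fgf5 at 12.6 ± 0.336 RPKM overlapped Pou3f1 at 12.3 ± 1.19 RPKM.

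Knockout cells also raised 8 of the 9 genes as they formed EBs, where 8.23% of all genes were called higher and 7.11% lower. In those 8 both EB libraries lay above both ESC libraries, an arrangement found in 28.9% of all genes, and below in 29.2%. Fgf5 went from 3.06 and 2.69 to 32.2 and 31.0 CPM (3.45 ± 0.16, adjusted p = 2.49e-06). Pim2 went from 12.2 and 9.54 CPM to 70.6 and 70.0 CPM (2.69 ± 0.14, adjusted p = 4.12e-06), Sall2 from 7.15 and 7.28 CPM to 31.1 and 35.4 CPM (2.20 ± 0.14, adjusted p = 1.1e-05) and Pou3f1 from 7.29 and 4.0 CPM to 50.5 and 44.0 CPM (3.06 ± 0.22, adjusted p = 1.8e-05). These genes rose in both genotypes and ended lower in the knockout.

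The rise of Otx2 in knockout cells was 1.5 ± 0.10 and that of Sfrp2 1.5 ± 0.20 on the log2 scale, beside 1.48 and 1.57 in control cells. Fgf15 rose by 1.64 ± 0.17 (adjusted p = 0.000182), beside 1.29 in control cells. Car4, at 61.9 and 56.0 CPM in knockout ESCs, rose only to 89.5 and 85.8 CPM in knockout EBs (0.57 ± 0.11, adjusted p = 0.00805). The Car4 call was lost without knockout EB replicate 1, the library with liver transcripts (0.55, adjusted p = 0.0817). Tcf15 did not pass (0.65 ± 0.38, adjusted p = 0.277), but was called without knockout ESC replicate 1 (1.67, adjusted p = 0.000623).

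**Figure D2:**
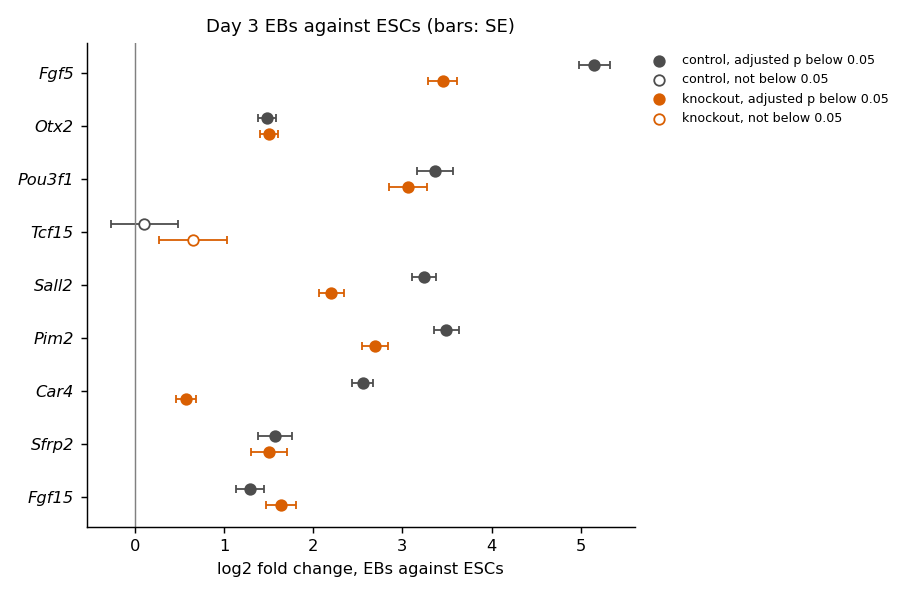
Log2 fold change of day 3 EBs against ESCs (x axis) for each gene (y axis) in control and knockout cells. Points are estimates and bars are SE. Filled points passed the test, and Fgf5 (5.15 in control, 3.45 in knockout) and Car4 (2.55 and 0.57) show the widest gaps between the genotypes.

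The knockout was compared with the control first in EBs, where formative genes are high. In knockout EBs 5 of the 9 genes were lower, none were higher, and Otx2, Car4, Sfrp2 and Tcf15 did not pass. Among all genes 6.80% were called in this comparison, 2.04% lower and 4.75% higher. The median log2 change over the 9 was -0.91, against 0.002 over all genes tested. In 8 of the 9 both knockout EB libraries lay below both control EB libraries, an arrangement found in 29.4% of all genes (30.0% had the opposite one). Without knockout EB replicate 1, 5 of the 9 were called, all lower, where 410 of 18202 genes (2.25%) were called in either direction against 1164 with all libraries.

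Pim2 changed most, from 208 and 238 CPM in control to 70.6 and 70.0 CPM in knockout EBs. That is 31.6% of the control level (-1.66 ± 0.13, adjusted p = 6.68e-05). Pou3f1 stood at 43.5% of the control level (106 and 111 against 50.5 and 44.0 CPM; -1.20 ± 0.18, adjusted p = 0.00347). Sall2 stood at 43.8% (72.1 and 79.9 against 31.1 and 35.4 CPM; -1.19 ± 0.12, adjusted p = 0.000393). The FGF ligands were also lower. Fgf5, at 32.2 and 31.0 CPM against 58.0 and 64.3 CPM, stood at 51.6% of control (-0.95 ± 0.13, adjusted p = 0.00182). Fgf15, at 27.0 and 23.7 CPM against 50.5 and 44.9 CPM, stood at 53.1% (-0.91 ± 0.15, adjusted p = 0.00608). The knockout and control libraries did not overlap in any of these 5 genes.

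The calls for Pim2, Sall2 and Fgf5 held without any 1 of the 8 libraries. Pou3f1 missed the threshold when control EB replicate 1 (adjusted p = 0.0702) or control EB replicate 2 (adjusted p = 0.0632) was left out. Fgf15 missed it with control EB replicate 1 left out (adjusted p = 0.108) or with knockout EB replicate 2 left out (adjusted p = 0.0656).

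The genes that did not pass were all estimated lower in knockout EBs. Otx2 stood at 237 and 218 CPM against 308 and 273 CPM (-0.36 ± 0.10, adjusted p = 0.0633). Car4 stood at 89.5 and 85.8 against 108 and 120 CPM (-0.38 ± 0.11, adjusted p = 0.0723), and Sfrp2 at 11.8 and 10.3 against 18.0 and 16.7 CPM (-0.65 ± 0.19, adjusted p = 0.0662). For these 3 genes the libraries did not overlap between the genotypes. All 3 passed when either knockout ESC library was left out of the shared estimate of the spread. Without knockout ESC replicate 1 and without replicate 2 the adjusted p was 0.00687 and 0.00613 for Otx2, 0.0114 and 0.0104 for Car4, and 0.0246 and 0.0235 for Sfrp2. In each of those fits 17.1% of all genes were called. They also passed with the GC trend of each library removed (adjusted p = 0.0126, 0.0136 and 0.0369), which raised the count of genes called lower to 8 of the 9. That fit called 2441 of all genes in either direction, against 1164 with the trends left in. Tcf15, at 39.4 and 30.8 CPM against 43.4 and 29.3 CPM, overlapped between the genotypes (-0.05 ± 0.37, adjusted p = 0.956), and its estimate changed sign with the GC trend removed (0.16, adjusted p = 0.617).

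In ESCs the same 9 genes split. Car4 and Fgf5 were higher in the knockout, Fgf15, Pou3f1, Pim2 and Otx2 were lower, and Tcf15, Sall2 and Sfrp2 did not pass. Among all genes 14.5% were called, 8.30% higher and 6.20% lower. Without knockout ESC replicate 2, 5 of the 9 were called, 2 higher and 3 lower, where 3595 of 18228 genes (19.7%) were called. Without knockout EB replicate 1, 4 were called, 1 higher and 3 lower, where 1875 of 18202 genes (10.3%) were. The median over the 9 was -0.58, against -0.03 over all genes. Both knockout libraries lay above both control libraries in 2 of the 9 and below them in 6, arrangements found in 25.1% and 27.5% of all genes.

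Car4 stood at 61.9 and 56.0 CPM in the knockout against 17.6 and 21.0 CPM in the control (1.61 ± 0.12, adjusted p = 1.94e-05), a 3.04-fold difference. Fgf15 stood at 6.93 and 9.32 CPM against 19.3 and 19.7 CPM (-1.26 ± 0.17, adjusted p = 0.000742), or 41.7% of control. Those 2 calls held without any 1 library. Pim2 fell from 21.4 and 18.3 CPM to 12.2 and 9.54 CPM (-0.86 ± 0.15, adjusted p = 0.00332), a call lost without control ESC replicate 1 (adjusted p = 0.0581).

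The other 3 calls were less stable. Fgf5 stood at 3.06 and 2.69 CPM in the knockout against 1.55 and 1.84 CPM, with no overlap (0.75 ± 0.22, adjusted p = 0.0426). That call held without knockout ESC replicate 2 but failed with any of these left out: control ESC replicate 1 (adjusted p = 0.228) or 2 (0.147), knockout ESC replicate 1 (0.125), control EB replicate 1 (0.0611) or 2 (0.0625), or knockout EB replicate 1 (0.0911) or 2 (0.0931). It was also lost by DESeq2 (adjusted p = 0.108). Otx2 fell from 103 and 106 CPM to 74.8 and 85.3 CPM (-0.38 ± 0.10, adjusted p = 0.0333). The Otx2 call held without either knockout ESC library but was lost without control ESC replicate 1 (0.155) or 2 (0.228), control EB replicate 1 (0.0553) or 2 (0.0538), or knockout EB replicate 1 (0.0514) or 2 (0.0549). With only the 4 ESC libraries fitted, Fgf5, Otx2 and Pou3f1 did not pass (adjusted p = 0.263, 0.129 and 0.141).

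Pou3f1 and Tcf15 are the GC-richest of the 9 genes, at 63.9% and 65.8% of the bases of their longest transcript, and their knockout ESC libraries disagreed. Pou3f1 stood at 7.29 CPM in knockout ESC replicate 1 and at 4.0 CPM in replicate 2, against 9.45 and 11.5 CPM in control ESCs (-0.90 ± 0.23, adjusted p = 0.0273). Its estimate was -1.41 without knockout ESC replicate 1. Without knockout ESC replicate 2 it was -0.54 and did not pass (adjusted p = 0.0585), and it was also lost without control ESC replicate 1 (0.0928) or 2 (0.263) and control EB replicate 1 (0.0711) or 2 (0.0719). With the GC trend of each library removed, the knockout values were 6.93 and 7.56 CPM and the log2 change was -0.63 (adjusted p = 0.0084).

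Tcf15 stood at 33.6 CPM in knockout ESC replicate 1, within the control range of 35.0 and 32.7 CPM, and at 11.1 CPM in replicate 2 (-0.60 ± 0.38, adjusted p = 0.349). With only replicate 2 kept, Tcf15 was called lower (-1.61, adjusted p = 0.00089), and with only replicate 1 kept the estimate was -0.01. After removal of the GC trend, Tcf15 stood at 31.2 and 22.2 CPM in knockout ESCs and did not pass (-0.34, adjusted p = 0.224). Sall2, at 7.15 and 7.28 CPM against 7.65 and 8.35 CPM (-0.15 ± 0.15, adjusted p = 0.566), and Sfrp2, at 4.08 and 3.71 CPM against 6.11 and 5.59 CPM (-0.58 ± 0.21, adjusted p = 0.0957), did not pass either.

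**Figure D3:**
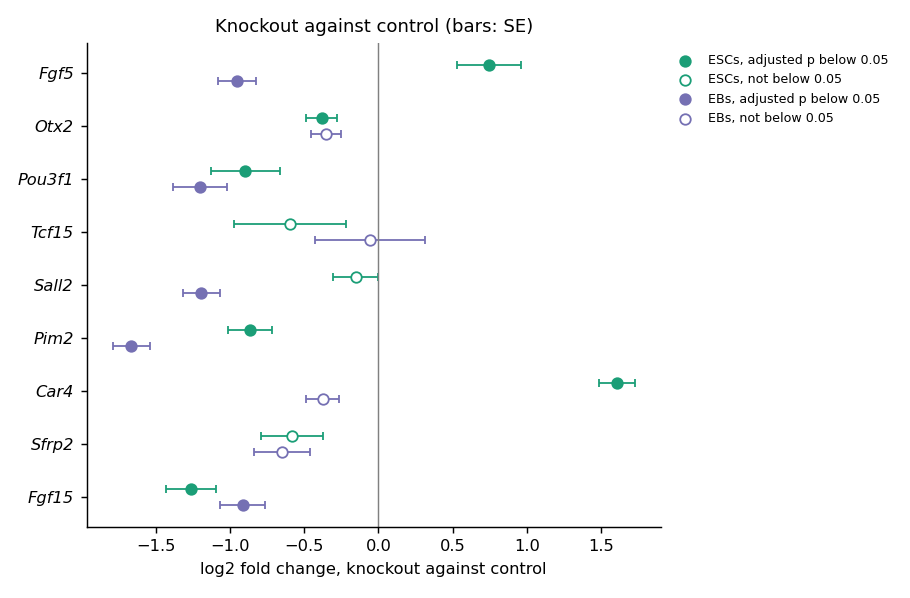
Log2 fold change of knockout against control (x axis) for each gene (y axis) in ESCs and in EBs. Points are estimates, bars are SE and filled points passed the test. Car4 and Fgf5 lie above 0 in ESCs (1.61 and 0.75) and below 0 in EBs (-0.38 and -0.95), and the other 7 lie below 0 at both stages.

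Whether the knockout effect differed between the stages was tested directly. It differed for 3 of the 9 genes, Car4, Fgf5 and Sall2, where 1.38% of all genes were called. For all 3 the signed log2 change, knockout against control, was lower in EBs than in ESCs. That direction was called in 0.642% of all genes and the other in 0.742%. The difference was -1.98 ± 0.16 for Car4 (adjusted p = 0.00245), whose knockout level was above control in ESCs and estimated below it in EBs. It was -1.70 ± 0.25 for Fgf5 (adjusted p = 0.013) and -1.04 ± 0.20 for Sall2 (adjusted p = 0.0324). Fgf5 was called higher in knockout ESCs and lower in knockout EBs, while Sall2 was called in EBs but not in ESCs. For Pim2 the difference was -0.80 ± 0.19 and did not pass (adjusted p = 0.0886), though it did by DESeq2 (0.0132), without knockout ESC replicate 2 (0.0121) and with the GC trend removed (0.00636). The estimates for Otx2 (0.03 ± 0.14), Sfrp2 (-0.07 ± 0.28), Fgf15 (0.35 ± 0.23), Pou3f1 (-0.30 ± 0.30) and Tcf15 (0.54 ± 0.53) did not pass. Tcf15 was called without knockout ESC replicate 1 (1.56, adjusted p = 0.009).

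Each of these 3 calls was lost when certain single libraries were left out. Car4 did not pass with control ESC replicate 1 left out (adjusted p = 0.0744) or 2 (0.0681), or control EB replicate 2 (0.071). Fgf5 was lost without control ESC replicate 1 (0.161) or 2 (0.134), control EB replicate 1 (0.0854) or 2 (0.11), or knockout EB replicate 1 (0.0805). Sall2 was lost without control ESC replicate 1 (0.225) or 2 (0.223), control EB replicate 1 (0.148) or 2 (0.175), or knockout EB replicate 1 (0.226) or 2 (0.0828). Without knockout ESC replicate 2, the library with the GC trend, all 3 were called, where 5.38% of all genes were. Over all genes, edgeR called 0 differences without control ESC replicate 1, control ESC replicate 2 or control EB replicate 2, where 1566, 1391 and 2137 genes had an unadjusted p below 0.05, and DESeq2 called 368 with all libraries.

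The order of the 4 group means was shared by 7 of the 9 genes, with knockout ESCs lowest, then control ESCs, knockout EBs and control EBs. Of the knockout against control steps in that order, those of Sall2, Sfrp2 and Tcf15 in ESCs and those of Otx2, Sfrp2 and Tcf15 in EBs did not pass, and control ESCs against knockout EBs was not tested. Fgf5 and Car4 had the order control ESCs, knockout ESCs, knockout EBs, control EBs. Over the 10671 protein-coding genes that averaged 5 CPM or more, likeness of pattern was taken as the root-mean-square difference of log2 CPM over the 8 libraries after centring each gene on its mean. Pou3f1 and Pim2 were among each other's 2 nearest genes at 0.256. Mmp25 was the nearest gene to Pou3f1 (0.241) and to Sall2 (0.306), and was among the 2 nearest of Pim2 (0.301) and Fgf5 (0.65). The nearest to Fgf5 was Afp (0.396), to Otx2 Psmb10 (0.12) and Grhl2 (0.144), to Sfrp2 Rragd (0.127) and Bend3 (0.137), and to Fgf15 Lpar4 (0.077) and Myb (0.175). Car4 had Sema6a (0.181) and Pxdc1 (0.292), Sall2 also had Zfp608 (0.344), and Tcf15 had Ypel3 (0.148) and Ppard (0.187). The GC trend was not removed for these profiles. Tcf15 was lowest in knockout ESC replicate 2, the library with that trend, at 11.1 CPM, or 22.2 CPM with the trend removed, so its neighbours may share that deviation.

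The wider formative and primed programme was described with 18 further genes of these states. In control EBs 12 of the 18 were higher than in control ESCs, 2 were lower (Etv4 and Tdgf1) and 4 did not pass, with a median of 1.33 against -0.01 over all genes. In knockout cells 11 rose, 1 fell and 6 did not pass. Of all genes tested, 8.60% were called higher and 9.63% lower in control cells, and 8.23% and 7.11% in knockout cells. In knockout against control EBs 6 of the 18 fell, 0 rose and 12 were not called (median -0.44). The shares of all genes there were 2.04% lower and 4.75% higher (median 0.002). Dnmt3b, a de novo DNA methyltransferase, stood at 782 and 786 CPM in knockout EBs against 1261 and 1388 CPM in control EBs (-0.76 ± 0.08, adjusted p = 0.000506). The zinc finger factor Zic2 stood at 41.3 and 40.9 against 89.0 and 86.9 CPM (-1.10 ± 0.16, adjusted p = 0.00246). Zic5 (-0.85 ± 0.12) and the RNA-binding protein gene Lin28b (-0.90 ± 0.14) were lower too.

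In knockout against control ESCs 7 of the 18 fell, 2 rose and 9 were not called (median -0.28). The shares of all genes there were 6.20% lower and 8.30% higher (median -0.03). Lef1, a WNT-responsive transcription factor, stood at 3.14 and 3.49 CPM against 8.79 and 10.6 CPM (-1.55 ± 0.17, adjusted p = 0.000262). Zic2 (-1.60 ± 0.21) was lower as well. The genes that were higher were Cldn6, a tight junction gene (0.84 ± 0.10, adjusted p = 0.000481), and Dnmt3b (0.43 ± 0.08, adjusted p = 0.00672). Dnmt3b was the only one of the 18 whose knockout effect passed the test of a difference between the stages (-1.19 ± 0.12, adjusted p = 0.0036), from higher in ESCs to lower in EBs.

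FGF ligands signal through receptors whose ERK output induces feedback genes, and a list of 13 genes of this kind was counted, the ligand gene Fgf4 included. In knockout ESCs 7 fell, 1 rose and 5 were not called, and in knockout EBs 1 fell, 2 rose and 10 were not called. Over all genes tested, 6.20% were called lower and 8.30% higher in knockout ESCs, and 2.04% and 4.75% in knockout EBs. Klb, the coreceptor that endocrine FGFs such as Fgf15 need, stood at 35.1 and 39.4 CPM in knockout against 8.88 and 7.62 CPM in control ESCs (2.18 ± 0.16, adjusted p = 1.94e-05), and was higher in knockout EBs as well (1.07 ± 0.16). Klb and Fgf15 moved in opposite directions at both stages. The feedback inhibitors Il17rd (-0.86 ± 0.10) and Spry4 (-0.78 ± 0.11) and the ERK-responsive factor Etv5 (-0.58 ± 0.07) were lower in knockout ESCs. In knockout EBs the receptor gene Fgfr3 was higher (1.43 ± 0.33, adjusted p = 0.0285) and the ERK phosphatase gene Dusp6 lower (-0.43 ± 0.11, adjusted p = 0.0472).

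**Figure D4:**
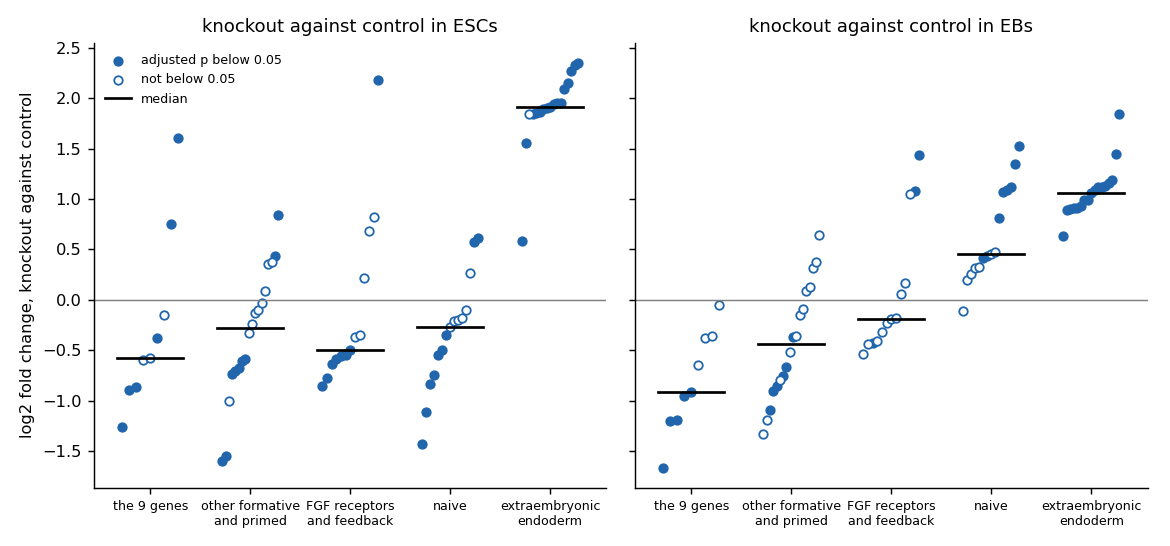
Log2 fold change of knockout against control (y axis) in ESCs (left) and in EBs (right) for the tested genes of 5 lists (x axis). Each point is a gene, filled where it passed the test, and lines are list medians. In EBs the medians are -0.91 for the 9 genes, -0.44 for the other formative and primed genes, 0.45 for naive genes and 1.06 for extraembryonic endoderm genes.

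Markers of other states and cells moved between the same samples. In knockout EBs 8 of the 15 naive genes were higher, 0 lower and 7 not called (median 0.45, against 0.002 over all genes). In control EBs against control ESCs 14 of the 15 fell, where 8 of the 9 formative genes rose and 9.63% of all genes were called lower. Tcl1 stood at 31.3 and 28.3 CPM in knockout EBs against 9.68 and 11.1 CPM in control EBs, and Tfcp2l1 at 66.3 and 67.6 against 32.8 and 30.2 CPM. In knockout ESCs 7 naive genes were lower, 2 higher and 6 not called. Of all genes tested, 8.30% were called higher and 6.20% lower in knockout ESCs, and 4.75% and 2.04% in knockout EBs. The 17 markers of extraembryonic endoderm were higher in the knockout for 16 genes in ESCs and for 17 in EBs. Their summed level ranged from 3768 to 3936 CPM in control and 13423 to 16434 CPM in knockout ESCs, and from 4362 to 4620 CPM in control and 8542 to 9285 CPM in knockout EBs, and none of the 17 was at 0 in any library. The part of these cells in the levels of Otx2, which visceral endoderm also expresses, and of the other 8 genes was not tested. Among the 17, Apoa1 stood at 112 CPM in knockout EB replicate 1, the library with liver transcripts, and at 41.1 CPM in replicate 2. Ttr stood at 147 and 97.6 CPM in the same libraries, and the sum over the 17 at 8542 and 9285 CPM. The part of liver RNA in these levels was not tested.

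Of 12 neuroectoderm genes, a tissue that also expresses Otx2, Pou3f1, Sfrp2 and Fgf15, 8 were tested. The summed level of all 12 was 109 CPM in both control and 75.6 to 91.4 CPM in knockout ESC libraries. In EBs it was 159 to 162 CPM in control against 92.4 to 94.5 CPM in knockout. Sox11 averaged 75.8 CPM in control and 28.3 CPM in knockout EBs, and Nes 36.5 and 22.8 CPM, while Tubb3 averaged 34.1 and 30.9 CPM. The part of neuroectoderm cells in the results was not tested. Of those tested, 3 were lower and 1 higher in knockout ESCs and 1, Sox11, lower in knockout EBs. Over all genes tested, 14.5% were called in ESCs and 6.80% in EBs. The defining factor Sox1 was at 0.761 to 4.23 CPM in every library. None of the 5 primitive streak genes tested, of 8, was called between genotypes (summed level 10.2 to 37.3 CPM). Of 8 fibroblast genes, 4 were tested and 1, Col1a2, was higher in knockout ESCs (summed level 18.1 to 27.4 CPM).

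The 9 formative genes had summed levels of 221 and 225 CPM in control against 211 and 189 CPM in knockout ESCs, and of 972 and 977 CPM in control against 589 and 549 CPM in knockout EBs. The library with liver transcripts is the first of the knockout EB pair. Of 15 liver genes 10 were tested and 2 were called higher in knockout EBs, Fga and Mat1a, where 4.75% of all genes were. Without the library with liver transcripts the log2 change in EBs was -1.66 for Pim2, -0.97 for Fgf5 and -1.10 for Sall2. With all libraries it was -1.66, -0.95 and -1.19, so the Sall2 estimate was the one that became smaller. For Pou3f1 and Fgf15, also called lower in knockout EBs, it was -1.11 or lower and -0.82 or lower with any 1 library left out.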

How the data were processed

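RNA of 8 libraries was compared. The deposited table holds raw whole-number counts per gene beside gene lengths, per the file headers. Alignment, counting and testing tools listed in the submitters' processing notes are HISAT2, featureCounts and DESeq2, with the mm10 build and no versions or settings. Of 55401 genes, 55141 IDs matched a symbol in GENCODE M21, as did all 9 members.

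Genes were kept by edgeR's filterByExpr (17125), scaled by TMM factors and tested by edgeR's quasi-likelihood test, with a mean for each of the 4 groups in a fit of all 8 libraries, and p-values adjusted over all genes tested. With 2 libraries per group, the spread is shared between groups. CPM and RPKM were computed from the deposited counts and TMM-adjusted totals. GC-corrected values use log2 CPM (prior count 2) less a spline of 5 degrees of freedom per library, fitted on genes averaging 5 CPM or more. Fits were also run on simulated counts drawn with the spreads estimated here. Those counts gave no library a GC trend or liver transcripts of its own, so they do not test the fits against either. R 4.3.3, edgeR 4.0.16 and DESeq2 1.42.0 were used.

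The members, gene lists (other formative and primed, FGF receptors and feedback, family relatives, naive, general pluripotency, extraembryonic endoderm, neuroectoderm, primitive streak, adult liver, fibroblast) and tests were chosen with earlier results of these data known. Fgf8, Nanog, Sall4 and Utf1 are each on 2 lists. Named beside the members were up to 4 list genes per comparison with the smallest adjusted p, fewer where the text gives counts, and the 2 nearest profiles per member. Genes singled out otherwise (Etv4, Tdgf1, Fgf4, Sox1, Pou5f1, Sox2, Nanog and the relatives of the members) were named after their values were seen. The 8 motifs are textbook cores. Alternatives were other scaling, other filters, a replicate block, fewer libraries, DESeq2, a 2-fold minimum, GC correction and each library left out, the last with genes filtered anew.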

Additional observations from a re-analysis of the deposited data

Results flagged for a closer look

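The knockout effect, on the log2 scale, differed between EBs and ESCs for 3 of the 9 genes by the test of the difference itself. It was -1.70 for Fgf5 (0.75 in ESCs and -0.95 in EBs), -1.04 for Sall2 (-0.15 and -1.19) and -1.98 for Car4 (1.61 and -0.38). With 2 libraries per group, which library of a pair lies far off for a given gene cannot be told within that group. Knockout ESC replicate 2, by its GC trend, and knockout EB replicate 1, by its liver transcripts, were seen to stand apart against all the other libraries.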

How the results depend on the processing

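Every rise of the 8 genes in control EBs passed under each alternative, and 7 of the 8 in knockout cells did without any 1 library. In ESCs, 2 of 6 knockout calls held without any 1 library, and in EBs 3 of 5. Members called ranged, with 1 library left out, from 2 to 6 in ESCs, 3 to 8 in EBs, 8 throughout for control differentiation, 7 to 9 for knockout differentiation and 0 to 4 for the difference between stages. The corresponding counts over all genes ranged from 756 to 4729, 236 to 3127, 830 to 5512, 843 to 5485 and 0 to 2040, the lone library of a group being assumed to vary like the other groups. With at least a 2-fold change, 2 members were called in ESCs and 3 in EBs, and over all genes 1083 (ESCs), 554 (EBs), 1304 (control differentiation), 990 (knockout differentiation) and 141 (difference). With GC trends removed, 8 members were called in EBs, and 3794, 2441 and 744 genes in ESCs, EBs and the difference. With only the libraries compared, 3 members were called in ESCs and 8 in EBs, and 1358, 2720, 5571 and 818 genes in the first 4 comparisons. Without a low-count filter 2094 genes were called in EBs and 704 for the difference, and DESeq2 called 368 for the difference. The cause of these shifts was not tested.

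Estimates that changed sign were all of genes not called. Tcf15 in EBs became 0.16 with GC trends removed and 0.0085 with a crossed replicate block, with -0.30 to 0.25 over the libraries left out, and in control differentiation -0.25 with GC trends removed, with -0.20 to 0.35. For the difference, Otx2 became -0.0070 with a mean of at least 1 CPM and ranged from -0.0506 to 0.13, Sfrp2 from -0.16 to 0.0337, Pou3f1 from -0.66 to 0.21 and Tcf15 from -0.0460 to 1.56. The nominal replicate numbers were not shown to pair the libraries (correlations of deviations -0.238 to 0.037 over 11328 genes). With the replicate block 5 members were called in ESCs, the Fgf5 call being lost (adjusted p = 0.0616), 5 in EBs, 8 in each differentiation and 3 for the difference, and 2281, 967, 2840, 2318 and 173 of all genes in the same order; a block with the knockout EB numbers crossed, added after seeing the data, called 5 in EBs and 1035 genes. Library totals without composition factors gave 1137 higher and 1567 lower genes for knockout differentiation, against 1410 and 1217. Fgf5 in control ESCs, at 19 and 30 counts, was limited most by depth.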

Other observations

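Some relatives of the 9 genes in the same families moved differently from them and some moved alike. Pim2 rose in control EBs while the related kinase genes Pim1 (-1.08 ± 0.25, adjusted p = 0.0139) and Pim3 (-1.40 ± 0.25, adjusted p = 0.00406) fell by edgeR's quasi-likelihood test. Pim1 stood at 78.2 and 85.9 CPM in control ESCs and at 45.9 and 31.4 CPM in control EBs. In knockout against control EBs neither passed (Pim1 0.22 ± 0.25, Pim3 0.27 ± 0.25). Sfrp1, a WNT antagonist like Sfrp2, fell from 49.9 and 52.2 to 21.2 and 27.8 CPM in control EBs (-1.07 ± 0.14, adjusted p = 0.00066).

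Of the other Spalt genes, Sall1 was lower in knockout ESCs (-0.45 ± 0.10, adjusted p = 0.0117) and EBs (-0.42 ± 0.10, adjusted p = 0.0303), and Sall4 passed in neither (-0.19 ± 0.10 and -0.14 ± 0.10). The carbonic anhydrase genes Car2 (0.91 ± 0.12, adjusted p = 0.000661) and Car12 (1.08 ± 0.14, adjusted p = 0.000703) were higher in knockout ESCs, as Car4 was, and did not pass in EBs. Otx1 and Pou3f3 stayed under 2 CPM in every library, where Otx2 and Pou3f1 reached 308 and 111 CPM. Among 15 relatives with enough counts, of 18, the test called 2 higher and 1 lower in knockout ESCs, and 0 higher and 1 lower in knockout EBs. Over all genes tested, 8.30% were called higher and 6.20% lower in knockout ESCs, and 4.75% and 2.04% in knockout EBs.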
